A study of Mus musculus with 7 samples.

Results

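miR-192, miR-194 and miR-215 are microRNAs made from a pair of small gene clusters and are known as microRNAs of the proximal kidney tubule, intestine and liver. They were taken from the array files by name (mmu-miR-192, mmu-miR-194 and mmu-miR-215), 3 of 611 mouse microRNAs on the array, with 2 probes each and 6 probes in all. Whole frozen kidneys of male mice aged 3.5 to 4 weeks were compared between 4 wild-type mice (mgb+/+) and 3 homozygous megabladder mice (mgb-/-), with 1 single-colour Agilent array per mouse. Megabladder is a recessive mutant line, known to have arisen from a transgene insertion, in which the bladder lacks normal smooth muscle and urine backs up into the kidneys. The labels call these kidneys obstructed. Megabladder mouse 1 was not analysed here, although the series text speaks of 4 mutant kidneys.

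A microRNA is a short RNA that guides an Argonaute protein to messenger RNAs, mainly through its seed, bases 2 to 8 from the 5′ end. miR-192 and miR-194 are among the microRNAs enriched in kidney epithelium, where they have been studied in fibrosis, salt handling and differentiation, and hepatocyte nuclear factors are known to drive the clusters in epithelial tissues. Mir192 lies next to Mir194-2 on chromosome 19, after Atg2a and before the noncoding gene Gm14963, outside any annotated gene span. Mir194-1 and Mir215 lie next to each other on chromosome 1, inside the span of Iars2, which encodes the mitochondrial isoleucyl-tRNA synthetase. Gene order and mature sequences are those of RefSeq for GRCm38.p6, and positions are not given because the array files name another build, mm9.

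The mature sequences are shown, 5′ to 3′ with the seed in capitals, because they set which members the array can tell apart. All 3 members matched a RefSeq entry, each as the 5′ arm.
miR-192: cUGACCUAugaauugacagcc
miR-215: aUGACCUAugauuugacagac
miR-194: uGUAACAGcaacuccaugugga
miR-192 and miR-215 have the same seed, which no other mature mouse name in that table has, and so share predicted targets. They are 21 bases long and differ at 3, written from miR-192 to miR-215 and counted from the 5′ end as C1A, A12U and C20A. The seed of miR-194 was found in no other name.

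The hairpins of the 2 genes for miR-194 are shown with the mature sequence in capitals, because both give the identical 22 bases.
Mir194-1: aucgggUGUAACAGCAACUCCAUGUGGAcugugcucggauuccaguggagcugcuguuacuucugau
Mir194-2: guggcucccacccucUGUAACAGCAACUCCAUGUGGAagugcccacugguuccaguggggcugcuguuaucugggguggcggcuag
A probe for miR-194 therefore reads the sum of a gene beside Mir192 and a gene beside Mir215. miR-192 and miR-215 each come from 1 gene, and so stand for 1 cluster each.

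The 7 arrays shared 1 slide, whose first row held the wild-type and whose second row the megabladder kidneys, so the effect of genotype and that of the row cannot be told apart. Each array had 13000 spots for microRNAs, of which 3.45% to 3.77% were outliers and none was saturated, and 213 to 239 mouse microRNAs had the scanner software's detection flag. Levels are log2 scanner units after dividing each array by its 75th percentile, taken over the 292 probes detected on all arrays. For wild-type arrays that percentile was 348.1 to 495.8 units and for megabladder arrays 223.5 to 333.4, with no overlap. Nothing in the labels beyond a mouse number says how the mice were bred or processed, and the number of arrays limits the precision.

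miR-192, the member that stands for the chromosome 19 cluster alone, was well above background on all 7 arrays with both probes. Its level was 10.14, 10.07, 10.19 and 10.18 in wild-type mice 1 to 4. In megabladder mice 2, 3 and 4 it was 10.35, 9.50 and 10.30. Megabladder mice 2 and 4 lay above every wild-type mouse and megabladder mouse 3 below every one, so the groups overlapped. Wild-type kidneys had a mean of 10.14 ± 0.06 (SD, n = 4), and megabladder kidneys one of 10.05 ± 0.47 (SD, n = 3). The difference, megabladder minus wild-type, was -0.09 (SE 0.21, 95% interval -0.58 to 0.39), a 1.07-fold lower mean, with an adjusted p of 0.885 in limma.

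miR-194, the member shared by both clusters, was also well above background on every array with both probes. It stood at 8.55, 8.40, 8.51 and 8.48 in wild-type mice 1 to 4. In megabladder mice 2, 3 and 4 the level was 8.66, 7.92 and 8.87. The order was that of miR-192 in kind: mice 2 and 4 of the megabladder group lay above all wild-type mice and mouse 3 below them. Group means were 8.48 ± 0.06 (SD, n = 4) and 8.48 ± 0.50 (SD, n = 3), a difference of 0.00066 (SE 0.22, 95% interval -0.51 to 0.51) with an adjusted p of 0.998 in limma.

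miR-192 and miR-194 were the 2 measured members, and 0 of 2 passed limma at an adjusted p under 0.05, nor at an unadjusted p under 0.05. Among all 213 tested microRNAs, 3.29% passed the first threshold and 23% the second. The groups did not overlap for 22.1% of the 213 and for 0 of the 2 measured members. In whole kidney, fewer tubule cells and less of a microRNA per tubule cell cannot be told apart.

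**Figure D1:**
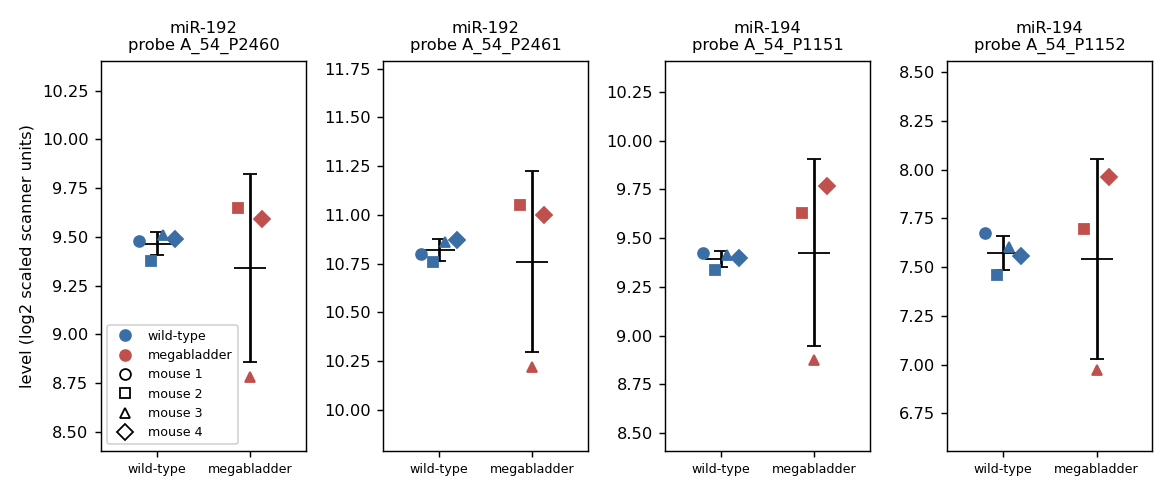
Level of the 2 miR-192 probes and the 2 miR-194 probes, in log2 scaled scanner units, by genotype. Points are single mice, the bar is the group mean with its SD, every panel spans 2 log2 units, and in each panel megabladder mouse 3 is the lowest point and megabladder mice 2 and 4 the highest.

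All 4 probes showed this order. Probe A_54_P2461, the brighter one for miR-192, read 10.80, 10.76, 10.86 and 10.87 in wild-type mice 1 to 4 and 11.05, 10.22 and 11.00 in megabladder mice 2 to 4. Probe A_54_P2460 for the same microRNA had a genotype difference of -0.12 against -0.06 for A_54_P2461. The miR-194 probes A_54_P1151 and A_54_P1152 had 0.03 and -0.03. None of the 4 differences passed limma over 404 probes, with adjusted p from 0.794 to 0.934. Each probe had 10 spots per array. The spots of a probe on an array varied by 2.48% to 6.31% (coefficient of variation) for miR-192 and by 1.48% to 7.38% for miR-194. This is the spread of spots on an array and not that between mice.

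miR-215, the member that stands for the chromosome 1 cluster alone, was never well above background, with either probe, on the 7 arrays. Its mean background-subtracted signal lay between -1.86 and 0.209 scanner units over 7 arrays and 2 probes, where the negative control spots of an array had an SD of 1.62 to 2.11 units. Of its 140 spots, 1 was well above background. That spot, at 74.9 units on the array of megabladder mouse 3, was flagged as an outlier by the software, and 0 of the 133 spots kept were above background.

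The signal of miR-215 was below what these arrays could measure in both genotypes, and no fold, test or correlation is given for it. The probes for miR-215 stayed at background on arrays that read miR-192, although the mature sequences have the same base at 18 of 21 positions (85.7%). Because miR-215 was not measured, the arrays hold no separate reading of the chromosome 1 cluster, and the share of miR-194 from each gene is not known from them.

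Wild-type mice were close together for both measured members, and megabladder mice were spread. The SD of miR-192 was 8.58 times larger in megabladder than in wild-type mice, and that of miR-194 was 7.77 times larger. Over all 213 microRNAs the median SD was 0.14 in wild-type and 0.20 in megabladder mice, and 131 had the larger SD in megabladder mice. Ordered by megabladder SD from the largest, miR-194 was number 17 and miR-192 number 20. These spreads were not tested, since groups of 3 and 4 mice describe a spread only roughly.

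Megabladder mouse 3 stood apart from the other megabladder mice. Its miR-192 level was 0.82 log2 units (1.77-fold) below the mean of megabladder mice 2 and 4, and its miR-194 level 0.84 units (1.79-fold) below. Over all 213 microRNAs the median of the same quantity was -0.17, and 143 were below 0. From the lowest, miR-194 was number 8 and miR-192 number 9. Lower still were miR-494, miR-203, miR-805, miR-107, miR-185, miR-1224 and miR-582-5p. Without this mouse the genotype difference was 0.18 for miR-192 (adjusted p = 0.291 in limma) and 0.28 for miR-194 (adjusted p = 0.22 in limma), the first of opposite sign to the value with it.

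Scaling changed the size of that distance and not its direction. It was -0.38 for miR-192 and -0.40 for miR-194 with signals left unscaled, -0.60 and -0.63 with quantile normalization, and -0.65 and -0.75 in the authors' deposited table. In that table miR-192 stood at 1687, 1506, 1610 and 1687 units in wild-type mice 1 to 4 and at 1814, 1158 and 1814 in megabladder mice 2 to 4. The authors' values for miR-194 were 628, 532, 587 and 587 in wild-type and 628, 423 and 808 in megabladder mice. Their table puts megabladder mouse 3 lowest for both members too.

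Some other measures of the array of megabladder mouse 3 also stood apart, and others did not. Its median local background was 28 units, against 22 to 24 on the other arrays. The 8 other tested tubule microRNAs did not share the low values: their summed level was 11.77 in that mouse against 11.75 and 11.66 in megabladder mice 2 and 4, and 11.70 to 11.79 in wild-type mice. The 4 stromal microRNAs (miR-199a-3p, miR-199a-5p, miR-199b* and miR-214, carried by fibroblast-like cells) summed to 9.17 in it, the highest of 7, against 8.73 and 8.46 in the other megabladder mice and 8.13 to 8.56 in wild-type mice. The 5 endothelial microRNAs summed to 10.58, the lowest of 7, against 10.77 to 10.88 elsewhere. The summed levels of the 5 microRNAs of the miR-200 family (10.91 against 10.98 to 11.06) and the 5 leukocyte microRNAs (7.71 against 7.72 to 7.99) were also lowest in it. Single members of these lists were mixed: miR-141 (6.91) and miR-200c (6.93) of the miR-200 family were the highest of 7 in it. So were miR-342-3p of the leukocyte list (6.14) and miR-218 of the endothelial list (6.05). Its summed urothelial (8.40), smooth muscle (7.52) and erythroid (11.20) microRNAs lay within the range of the other arrays. The urothelial list was mixed too: its brightest member miR-27b (8.12) was the highest of 7 in that mouse and miR-203 (4.34) the lowest. The part of any of these measures in the low values of miR-192 and miR-194 was not tested.

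Whether members of a cluster move together over the arrays was asked of the pair that could be measured. Of 3 planned pairs, the 2 with miR-215 gave no value, so no adjustment over pairs was needed. Over the 7 arrays, levels of miR-192 and miR-194 had a Pearson r of 0.944 (exact permutation p = 0.00476) and a Spearman rho of 0.857 (exact permutation p = 0.0238), both 2-sided. Leaving out the 2 arrays farthest from the median of miR-192, megabladder mice 3 and 2, gave an r of 0.90 over 5 arrays (exact permutation p = 0.0417) and a rho of 0.70. Those 5 were the wild-type mice and megabladder mouse 4, which lay above all of them for both members.

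**Figure D2:**
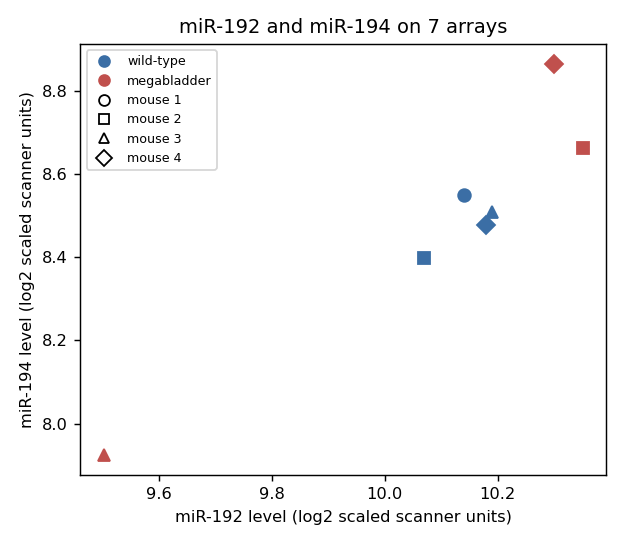
Level of miR-194 against level of miR-192, both in log2 scaled scanner units, for each of 7 mice. Megabladder mouse 3 lies at the lower left, megabladder mice 2 and 4 at the upper right, and the 4 wild-type mice between them within 0.2 log2 units in either direction.

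Much of this relation rested on megabladder mouse 3. Without it, and with the other levels as they were, r was 0.80 over 6 arrays (exact permutation p = 0.0542) and rho 0.77 (exact permutation p = 0.103). When the 6 arrays were also rescaled on the probes detected on all of them, r was 0.857 (exact permutation p = 0.0111). After subtracting each genotype's mean, r was 0.96 over 7 arrays and 0.10 without megabladder mouse 3. With 4 and 3 mice, r within a genotype was not computed.

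At the level of probes, the 2 miR-192 probes correlated at 0.99 and the 2 miR-194 probes at 0.98. The 4 pairs of a miR-192 probe with a miR-194 probe had r of 0.928 to 0.958. Without megabladder mouse 3 the same 4 pairs had 0.70 to 0.88, while probes of the same microRNA had 0.97 and 0.93. All of these values share the arrays and their scaling factors, and they are given as a description.

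The difference between members within an array does not depend on a scaling factor and shows whether they changed unequally. miR-192 minus miR-194 was 1.59, 1.67, 1.68 and 1.70 log2 units in wild-type mice 1 to 4. In megabladder mice 2, 3 and 4 it was 1.69, 1.58 and 1.43. Its absolute size has no meaning, since it sets different probes against each other, but its change between mice does. Megabladder mouse 4 had the lowest value, and the other 6 mice lay between 1.58 and 1.70. The means were 1.66 ± 0.05 (SD, n = 4) and 1.57 ± 0.13 (SD, n = 3), a genotype difference of -0.09 with a 2-sided exact permutation p of 0.257, where the smallest p of 35 splits is 0.0286.

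**Figure D3:**
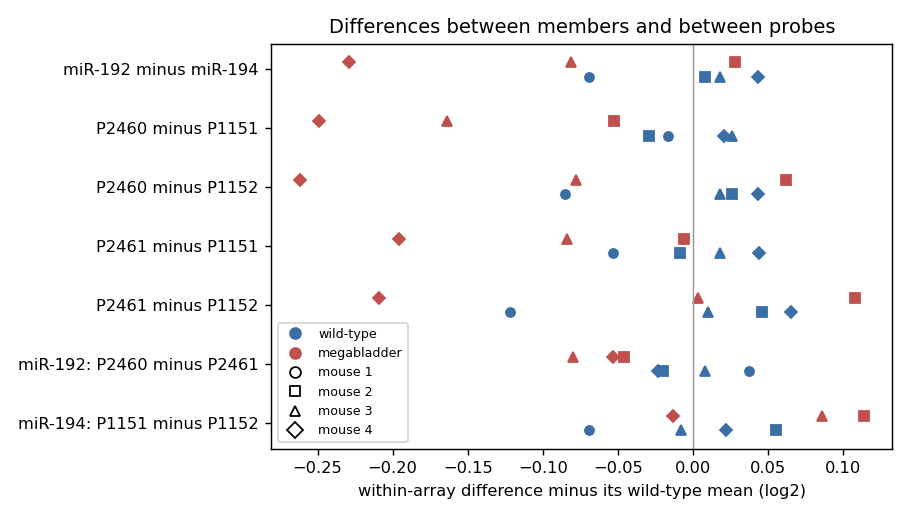
Differences between miR-192 and miR-194 and between their probes within each array, in log2 units, each after subtracting its wild-type mean. Points are single mice, wild-type in blue and megabladder in red; in the 5 differences of miR-192 against miR-194, megabladder mouse 4 is the lowest point, and the bottom 2 rows set probes of the same microRNA against each other.

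Single probes gave differences of the same sign and unequal size. Among the 4 pairs of a miR-192 probe with a miR-194 probe, the genotype difference ran from -0.16 for A_54_P2460 minus A_54_P1151 to -0.03 for A_54_P2461 minus A_54_P1152. Of these 4 pairs the first alone kept wild-type and megabladder values apart, with a 2-sided exact permutation p of 0.0286, or 0.0857 after adjustment over 6 probe pairs. The 2 probes of miR-192 also differed between genotypes, by -0.06 with no overlap (exact permutation p = 0.0286, adjusted 0.0857), although they read the same microRNA. The 2 probes of miR-194 differed between genotypes by 0.06, with overlap (exact permutation p = 0.257).

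Against other microRNAs with neighbouring genes, the pair had a high correlation that a number of others reached. RefSeq names matched 186 of 213 tested microRNAs, and 103 pairs of them had genes within 10 kb of each other on a chromosome. Their median r over the 7 arrays was 0.777, against 0.113 for all other pairs of the 17187. The r of miR-192 and miR-194 was reached or passed by 21 of the 103, itself included. Leaving out the repeat-rich microRNAs (miR-297, miR-466, miR-467, miR-574, miR-669 and miR-1187), 76 neighbouring pairs remained, with a median r of 0.67. Of these 76, 12 reached or passed the r of miR-192 and miR-194, itself included. The SD of the within-array difference, which needs no scaling, was 0.096 log2 units for miR-192 and miR-194. It had a median of 0.165 over the 103 neighbouring pairs, 0.13 over the 76 and 0.36 over other pairs, of which 1.76% were as low. Of the 103 neighbouring pairs, 22 had an SD as low, itself included, and all 22 were among the 76. They included let-7a with let-7f (0.026), miR-106b with miR-25 (0.049) and miR-199a-5p with miR-214 (0.061). Many neighbouring pairs are also alike in sequence, and these values carry no test.

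**Figure D4:**
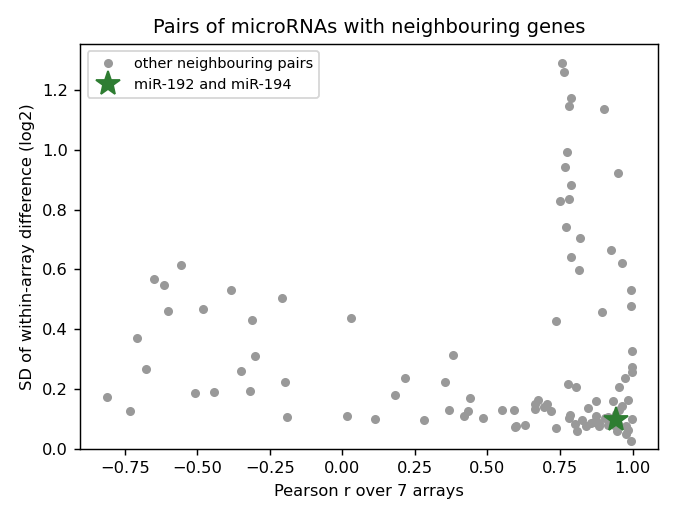
Each point is a pair of tested microRNAs whose genes neighbour each other in RefSeq, 103 in all, with Pearson r over the 7 arrays across and the SD of their within-array difference in log2 units upward. The star, miR-192 with miR-194, lies at r = 0.944 and SD = 0.096, in the dense corner of high r and low SD.

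The microRNAs whose levels over the 7 arrays were most like those of miR-192 were miR-203 (r = 0.992), miR-107 (0.949) and miR-374 (0.947). For miR-194 they were miR-222 (0.977), miR-16 (0.966) and miR-103 (0.958). In likeness to miR-192, miR-194 was number 4 of 212, and in likeness to miR-194, miR-192 was number 6, where the median r over the 212 was 0.083 and 0.192. Without megabladder mouse 3 these places were 27 and 33, at an r of 0.80 and with medians of 0.31 and 0.40. The r of miR-203, miR-107 and miR-374 with miR-192 was then 0.92, 0.67 and 0.73. That of miR-222, miR-16 and miR-103 with miR-194 was 0.93, 0.88 and 0.89. miR-203, a microRNA of stratified epithelium, stood at 5.35, 5.17, 5.27 and 5.37 in wild-type mice 1 to 4 and at 5.57, 4.34 and 5.44 in megabladder mice 2 to 4. It thus repeated the order seen in miR-192, mouse 3 lowest and mice 2 and 4 highest. These r are descriptions over 7 arrays that share their scaling.

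Among 12 microRNAs listed as kidney tubule microRNAs, 10 could be tested, miR-192 and miR-194 among them. miR-215 was above background on none of the 7 arrays and miR-211 on 1. None of the 10 passed limma after adjustment, and 1 had an unadjusted p under 0.05, against 3.29% and 23% of all 213. Their median difference was -0.04, with 4 positive and 6 negative, against a median of 0.09 over all 213 microRNAs. The lowest of the others was miR-30b, of the miR-30 family found throughout the nephron, at -0.13 (95% interval -0.36 to 0.10, adjusted p = 0.519 in limma). The highest was miR-204, which lies in Trpm3 and is abundant in kidney epithelium, at 0.50 (interval -0.20 to 1.21, adjusted p = 0.403 in limma). Its wild-type values were split, 5.47 and 5.64 in mice 1 and 2 against 4.59 and 4.58 in mice 3 and 4. Megabladder mice had 5.38 to 5.79, near wild-type mice 1 and 2.

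miR-30d, of the same miR-30 family, gave the unadjusted p under 0.05. It was 0.26 higher, with megabladder values all above wild-type values, and an adjusted p of 0.214 in limma. The intervals of miR-192 and miR-194 were wider than those of the 7 miR-30 microRNAs on the list. miR-30a, for one, had a wild-type mean of 10.33 ± 0.10 (SD, n = 4) and a megabladder mean of 10.33 ± 0.01 (SD, n = 3). For these 7, megabladder mouse 3 stood at 0.00 to 0.26 against the mean of megabladder mice 2 and 4. The other tested star strands of the family, not on the list, were lower in mouse 3 than that mean: miR-30b* (3.51 against 3.74 and 3.59), miR-30c-1* (3.51 against 3.51 and 3.75) and miR-30c-2* (5.12 against 5.30 and 5.23), where 3.51 is the floor.

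**Figure D5:**
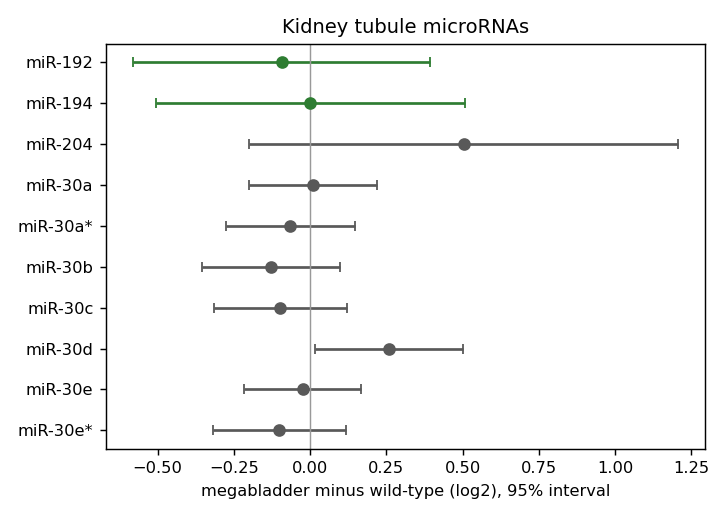
Megabladder minus wild-type difference in log2 units with its 95% interval from limma for the 10 tested tubule microRNAs, 4 wild-type against 3 megabladder mice. miR-192 and miR-194, in green, lie at -0.09 and 0.00 with intervals of about 1 log2 unit, wider than those of the miR-30 microRNAs shown and narrower than that of miR-204.

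Markers of other cell types were read on the same arrays. All 5 microRNAs of the miR-200 family, which maintain epithelial identity, were tested and lay between -0.14 (miR-200a) and 0.07. Of 5 urothelial and stratified epithelium microRNAs 4 were tested, with miR-205 at 1.23 against a wild-type group at the floor. Of these 4, 3 had a positive difference and 1, miR-203, a negative one (-0.17). Of the stromal list 4 of 4 had positive differences, as had 145 of all 213 microRNAs. Their summed level was 8.13 to 8.56 in wild-type and 8.46 to 9.17 in megabladder mice. The largest of the 4 was 0.59 for miR-199b*, whose wild-type values were 6.62 and 6.78 in mice 1 and 2 and 6.09 and 6.08 in mice 3 and 4. Smooth muscle microRNAs were tested for 2 of 5, led by miR-145 at 0.24, and miR-133a was not above background on any array. Of leukocyte microRNAs 5 of 7 were tested, 2 positive and 3 negative, from miR-155 at -0.47 to miR-342-3p at 0.28. All 3 erythroid ones were tested and positive, led by miR-486 at 0.32. All 5 endothelial ones were tested and negative, as were 68 of all 213, led by miR-126-5p at -0.23. None of these 28 passed limma after adjustment, and 4 had an unadjusted p under 0.05. Among all 213 microRNAs the shares were 3.29% and 23%. miR-122, which defines hepatocytes, was above background on 1 of 7 arrays and not tested.

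Without scaling between arrays, both members were lower in megabladder kidneys. The brighter miR-192 probe read 2018, 2201, 2670 and 1885 scanner units in wild-type mice 1 to 4 and 1652, 1152 and 1327 in megabladder mice 2 to 4. Unscaled, the difference was -0.71 for miR-192 (adjusted p = 0.0379 in limma) and -0.61 for miR-194 (adjusted p = 0.0397 in limma), and 31.9% of all 213 microRNAs were called lower. The median of all microRNAs was -0.50 in that setting, and relative to it the members stood at -0.21 and -0.11. Relative to the median of all microRNAs in the main scaling they stood at -0.18 and -0.09, with quantile normalization at 0.08 and 0.12, and with normexp background correction at -0.59 and -0.42. Whether the members differ between genotypes depends on the scaling, since unscaled signals were lower for most microRNAs on the megabladder arrays.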

How the data were processed

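Small RNA in 100 ng of total RNA per kidney was labelled with Cy3 and read on 1 Agilent mouse microRNA array per mouse, 4 wild-type and 3 megabladder, per the labels' protocols. Spot intensity values were read by the authors with Feature Extraction 10.7.3.1 of Agilent, a version both the submitters' processing notes and the file headers give. These deposited intensity columns (background-subtracted signals, raw medians and total gene signals) are not scaled between arrays. The value table of the authors holds whole-number intensity values from 20 to 9741, and no source used here gives its scaling. Its rows were matched by probe, 531 of 650 names lay before the point where it leaves the array values, and both measured members were among them. It served as an alternative only.

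Control and outlier spots were left out and the spots of a probe averaged. Arrays were divided by their 75th percentile over probes detected on all arrays, relative to the geometric mean of those percentiles. Values under 11.4 units were set to it before taking log2 of the deposited signals, this floor being the 1st percentile of signal among probes well above background, taken per array, with the median kept. A probe counted as well above background on an array where at least 0.5 of its spots were, and entered where this held on at least 3 arrays. Levels are means over such probes. The test was limma 3.58.1 (lmFit, then eBayes; R 4.3.3) over 213 mouse microRNAs, with Benjamini-Hochberg adjusted p under 0.05. The fit and the permutation tests were tested on simulated data. Mice are the replicates, and p-values measure the spread between mice as labelled.

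The members, the lists, the tests and the alternatives were chosen with earlier results of these data known. Named microRNAs are the members with every probe, the 3 most correlated with each measured member, the lowest and highest of the tubule list, and the largest absolute difference of each other list. Others, and the distance of megabladder mouse 3, were chosen after their values were seen. Normexp (offset 50) used median spot signals, since the files hold no mean spot signals.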

Additional observations from a re-analysis of the deposited data

How the results depend on the processing

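Neither measured member passed in limma under any of 20 alternatives but no scaling, where miR-192 had -0.71 and miR-194 -0.61. With scaling by all probes miR-192 had -0.83 (adjusted p = 0.08045 in limma) and miR-194 -0.74 (adjusted p = 0.08283 in limma). The median of all microRNAs was -0.62 in that setting. Without 1 array at a time miR-192 ran from -0.25 to 0.18, turning positive without megabladder mouse 3, and miR-194 from -0.20 to 0.28, negative without megabladder mouse 2 or 4 or wild-type mouse 2 or 4. The near-zero miR-194 also turned negative with scaling by all probes (-0.74), quantiles (-0.023) and the median (-0.16), and without wild-type mice 3 and 4 (-0.0047). Over all alternatives the adjusted p was 0.0379 to 0.978 for miR-192 and 0.0397 to 0.998 for miR-194. The correlation of the members was 0.814 to 0.990 and passed in 18 of 19 alternatives, not with normexp (r = 0.814, exact permutation p = 0.0585). No filter, a floor of 1 and probes above background on all arrays could not change r from the main value of 0.944. It was 0.990 with scaling by all probes and 0.980 with no scaling. In those 2 settings the median difference of all microRNAs was -0.62 and -0.50, so array brightness enters r. With the remaining arrays rescaled r was 0.857 to 0.990 without 1 array at a time. Without megabladder mouse 3 and with levels unchanged it was 0.80 and did not pass (exact permutation p = 0.0542). The within-array difference of the members was negative in all 19 (-0.17 to -0.03). Scaling by all probes, by the median or not at all could not change it from the main value of -0.09. Nor could no filter, a floor of 1 or probes above background on all arrays. Without an array or a pair of arrays it could not have passed, since the smallest possible p was 0.0667 to 0.1. The low values of megabladder mouse 3 were negative in all 16 alternatives for both members.

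The number of microRNAs called higher, 6 in the main setting, was 0 with scaling by all probes, quantiles, no filter, a floor of 1, normexp and the authors' values (7 to 49 at an unadjusted p under 0.05 in limma). It was 1 with scaling by the median, no scaling, total gene signal or without wild-type mice 3 and 4, 3 with probes above background on all arrays, and 0 to 10 without 1 array at a time, with 10 when megabladder mouse 3 was left out. The number called lower, 1 in the main setting, was 68 without scaling, 0 with scaling by all probes, quantiles, a floor of 1, normexp or without wild-type mice 3 and 4 (2 to 100 at an unadjusted p under 0.05), and 0 to 1 without 1 array at a time. The labels do not say whether replicate numbers pair the mice, and 3 correlations are too few to settle it. Deviations of same-numbered mice correlated at -0.21, 0.0066 and 0.21, and 1 of 3 matched its own number best. The number of a mouse was also its column on the slide. With the replicate block 27 were called higher, miR-192 had -0.09 and miR-194 0.02, and neither passed. No alternative gave miR-215 a value, since it was at the floor or left out in each. Signal over background limits what can be said of miR-215, and the 7 arrays limit the rest.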
